A study of Mus musculus with 11 samples.

Results

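This report concerns adult bone marrow hematopoietic stem cells (BM HSCs) set against every prenatal population of the same RNA-seq series. The 2 BM HSC libraries were compared with 9 prenatal libraries, 2 of endothelial cells (Endo), 2 of hemogenic endothelium (HE), 3 of pre-HSCs and 2 of fetal liver (FL) HSCs, and a gene was a member when both BM libraries lay above, or both lay below, all 9 prenatal libraries. Of 14708 genes tested, 4417 (30.0%) met this rule, 2706 (18.4%) on the higher and 1711 (11.6%) on the lower side. These libraries chose the members, so the counts of separated genes are a description.

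BM HSCs were sorted from the long bones of B6C3F1/J and B6129SF1/J mice of both sexes, aged 6 to 8 weeks, after enrichment for CD117, as lineage-negative Sca1+ Kit+ CD150+ cells. The study's methods exclude CD48 and CD135 in this sort, and its list of sorted populations gives CD34 in their place. FL HSCs were lineage-negative Sca1+ Kit+ CD150+ CD48- cells of E14.5 embryos from B6C3F1 and B6129SF1 parents. Pre-HSCs were CD31+ CD144+ ESAM+ Kit+ cells that carried a Ly6a:GFP transgene, labelled E10.5 and collected a day later by the study's methods. Their dams were B6C3F1/J females given gonadotropins to cause superovulation, and their sires were Ly6a:GFP mice of a B6.Cg strain. HE and Endo were CD31+ CD45- CD41- cells of E10.5 embryos with and without GFP from the Runx1 locus, Kit low or negative in HE and Kit negative in Endo, from Runx1 GFP sires and B6C3F1 females. The sample labels give B6129SF1 for all 11 libraries. Each library pooled cells of several embryos or mice, and no source used here says how the replicates were separated, so p values measure the spread between these libraries. Age, tissue, strain and gate all differ between BM HSCs and one or more prenatal populations, and their parts in any difference cannot be told apart. Fewer cells that express a gene and less RNA per cell cannot be told apart either.

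HSCs arise in embryonic arteries from hemogenic endothelium, expand in the fetal liver and settle in the marrow, where most of them divide rarely. Fetal HSCs divide often and carry a set of RNA-binding and chromatin proteins, headed by Lin28b, that is silenced after birth as let-7 microRNAs accumulate. MHC class I molecules display peptides made by the proteasome on the cell surface, and interferons raise both these genes and a wide set of antiviral genes.

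Values are FPKM (fragments scaled by transcript length and by the size of the library). FPKM sums ranged from 569851 to 789161 over the libraries, and 622615 and 653806 were found in BM HSCs. Read depth is unknown. The pairs of libraries within a population correlated at Pearson's r of 0.958 to 0.978 across genes, 0.962 for BM HSCs. The sort markers of BM HSCs were present. Slamf1 (CD150) was at 31.8 and 29.4 FPKM in BM HSCs, 13 and 16.8 in FL HSCs and 0 to 0.959 in the 7 earlier libraries. Kit was at 195 and 182 FPKM, Ly6a (Sca1) at 32.3 and 43.2 and the HSC factor Hlf at 102 and 104 in BM HSCs, each above the highest prenatal values of 129.96, 9.99 and 91.7. Mecom, another HSC factor, at 41.2 and 40.1, and Procr, at 42.9 and 39.2, overlapped with the prenatal libraries at 10.3 to 52.3 and 19.2 to 138. Fgd5, an HSC marker shared with endothelium, was below every prenatal library, at 13.1 and 15.7 against 17.3 to 68.4 FPKM. Lineage genes that the sort excludes were low. Cd3e, Cd8a, Ly6g and Itgax were at most 0.0573 FPKM in both BM libraries, Itgam was at 1.32 and 1.32 and Cd4 at 4.16 and 1.97.

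The log2 difference was fitted with limma on log2(FPKM + 1) as the BM mean minus the mean of the 4 prenatal population means. A gene was called when an F test over the 5 populations had an adjusted p under 0.01 and the contrast had an adjusted p under 0.05 and a change of at least 2-fold. Log2 fold changes below are on this scale, which understates changes of genes near 0, and SE is their standard error. Of 14708 genes, 2243 (15.3%) were called higher and 1765 (12.0%) lower, against a median log2 fold change of 0.10 over all genes. The calls covered 1662 of the 2706 higher members (61.4% of them and 11.3% of all genes tested) and 842 of the 1711 lower members (49.2% of them and 5.72% of all genes tested). Separation and fit used the same values, so neither supports the other. The other 1044 and 869 members were separated from the prenatal libraries without passing the test. Conversely, 581 genes called higher and 923 called lower overlapped with at least 1 prenatal library. Against each of the 4 prenatal populations taken singly, 599 genes (4.07%) were called higher and 243 (1.65%) lower, all of them members. These last counts rest on a spread shared by all 5 populations. The difference from FL HSCs alone was called higher for 881 genes (5.99%) and lower for 599 (4.07%). A limma fit of only the 4 libraries of BM and FL HSCs, with no F test step, called 0 genes, with 3943 at an unadjusted p under 0.05, so that 0 genes were then called against all 4 populations. Without BM HSC replicate 1 the 599 genes higher than each population became 384.

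Of the members, 159 passed the filter only through the BM libraries, having no prenatal library at 1 FPKM, and had to differ. They include 117 of the genes called higher, 5 of which averaged at least 10 FPKM in BM HSCs. On the lower side, 373 called members were under 1 FPKM in both BM libraries, and 137 of these averaged at least 10 FPKM before birth. At the edge of the rule, Zfp317 was just inside, with 13.294 FPKM in the lower BM library against 13.288 in the highest prenatal one, and Pum2 just outside, with 60.056 against 60.083. On the lower side, Arhgef7 was just inside with 15.537 FPKM in the higher BM library against 15.548 in the lowest prenatal one, while Stmn2 was outside because it was listed at 0 in both BM libraries and in at least 1 prenatal library.

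**Figure D1:**
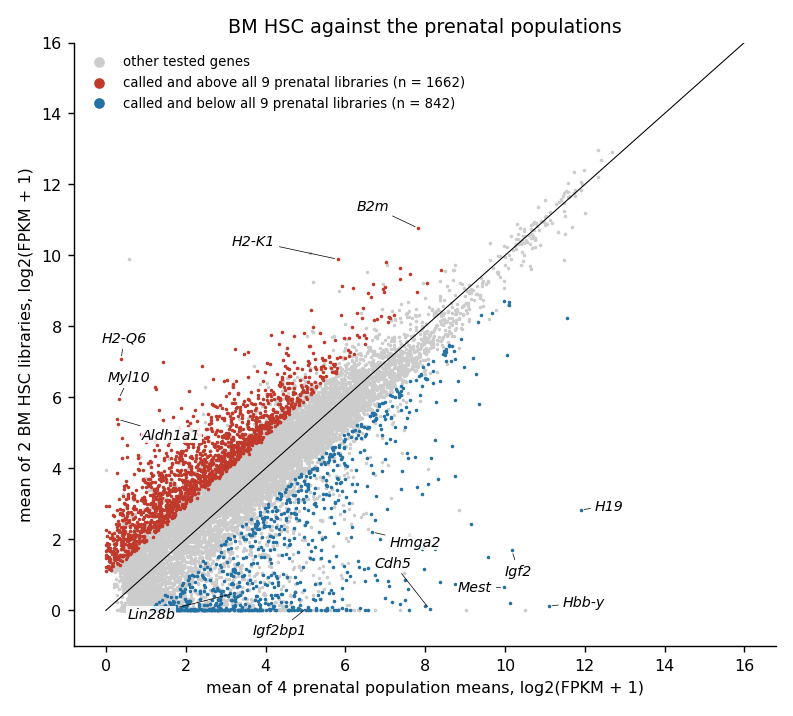
Mean log2(FPKM + 1) of the 2 BM HSC libraries (vertical) against the mean over the 4 prenatal populations (horizontal) for 14708 tested genes, each a point, with the line of equality. The 1662 called genes above all prenatal libraries are red and the 842 below all of them are blue; H2-Q6, Myl10 and Aldh1a1 sit near 0 on the prenatal axis, and H19, Igf2, Mest and Hbb-y far below the line.

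Group counts below stand beside all tested genes, of which 15.3% were called higher and 12.0% lower. Of all tested genes, 18.4% lay above and 11.6% below every prenatal library. Of 38 gene groups, MHC class I genes had the highest median difference. Of 27 tested genes for class I molecules and peptide loading, 24 were called higher, 25 lay above every prenatal library and the median log2 fold change was 3.11. Of these, 17 were called against each of the 4 populations. Class I genes such as H2-Q6 and H2-Q8 passed the filter only through the BM libraries. They had to lie above every prenatal library, and counts and a median without such genes were not made. H2-K1 (chromosome 17, 34132962 to 34137278 in NCBIM37), which encodes a classical class I heavy chain, was at 907 and 989.5 FPKM in BM HSCs, 153 and 146 in fetal liver, 34.8, 24 and 79.6 in pre-HSCs, 20.9 and 12.8 in HE and 9.16 and 11.3 in Endo. The lowest BM value was several times the highest prenatal one, with a log2 fold change of 4.84 ± 0.35 (SE, adjusted p by limma of 2.27e-06). B2m, the light chain shared by all class I molecules, was at 1615 and 1869 FPKM in BM HSCs, 359 and 338 in FL HSCs and 76.7 to 498 in the 7 earlier libraries, a log2 fold change of 3.24 ± 0.21 (SE, adjusted p by limma of 1.02e-06). Pre-HSC and FL libraries had similar B2m, 266 to 498 FPKM, and both BM libraries stood above them.

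H2-Q6, H2-Q7 and H2-Q8, class I genes of the Q region, were at most 2.9 FPKM before birth and abundant in BM HSCs. H2-Q6 was at 114 and 153 FPKM in BM HSCs, 0.352 and 0.15 in fetal liver, 0.0835, 0.274 and 0.809 in pre-HSCs, 0.157 and 0.654 in HE and 0.262 and 0.0658 in Endo. H2-Q7 was at 115 and 137 FPKM in BM HSCs, 0.199 and 0.535 in FL HSCs and 0.985 to 2.9 in the 7 earlier libraries, and H2-Q8 at 41.8 and 32.8 FPKM in BM HSCs, 0.201 and 0.309 in FL HSCs and 0 to 0.494 in the 7 earlier libraries. No prenatal library reached 1 FPKM of H2-Q6 or H2-Q8, and H2-Q7 was lowest in FL HSCs. Their log2 fold changes were 6.69, 5.65 and 4.96, with limma's adjusted p value of 6.92e-08 for H2-Q7. H2-Q6 and H2-Q8 passed the filter on low values only through the BM libraries, so their fold changes are a description. H2-Q4, which was chosen after its values were seen, was at 171 and 154 FPKM in BM HSCs and 3.56 to 18.4 before birth. Q region genes are near-identical copies that differ between mouse strains, so the split of reads among them is uncertain.

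A gene that drives class I transcription and one that supplies peptides were also higher. Nlrc5, the transactivator of class I genes, was at 18.3 and 18.6 FPKM in BM HSCs, 0.882 and 0.87 in FL HSCs and 0 to 0.801 in the 7 earlier libraries, and its log2 fold change was 3.92, given as a description because Nlrc5 passed the filter only through the BM libraries. Both BM libraries of Nlrc5 were thus close to each other and far from a prenatal maximum of 0.882 FPKM. Psmb8, a subunit of the immunoproteasome, was at 197 and 256 FPKM in BM HSCs, 119 and 88.4 in fetal liver, 11.9, 7.31 and 30.3 in pre-HSCs, 0.0977 and 0.0794 in HE and 0.499 and 0.28 in Endo. Psmb8 was near 0 in Endo and HE and had a clear level in FL HSCs, from which BM HSCs differed by 1.12 ± 0.48 (SE, adjusted p by limma of 0.123) on the log2 scale, short of the call. Its log2 fold change against the prenatal mean was 5.02 and was called, but with the prenatal libraries as 1 group and no F test step the call was lost (adjusted p by limma of 0.0763).

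**Figure D2:**
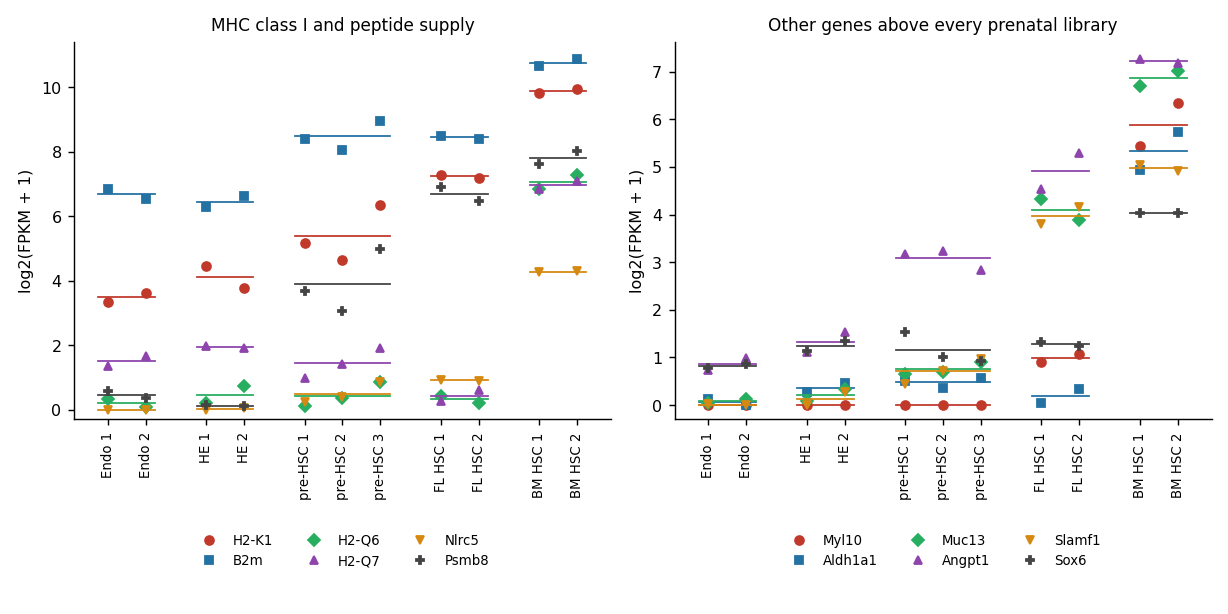
Log2(FPKM + 1) in each of the 11 libraries (points) with population means (lines) for 6 class I and peptide supply genes (left) and 6 other genes above every prenatal library (right). H2-Q6, H2-Q7 and Nlrc5 are low in all 9 prenatal libraries, whereas Muc13 and Slamf1 have a first step at FL HSCs and Psmb8 and Angpt1 one at pre-HSCs.

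Class II genes, which present peptides to helper T cells, were also higher in BM HSCs, at lower levels. Of 11 tested, 10 were called higher and 7 lay above every prenatal library, with a median log2 fold change of 2.69. Against pre-HSCs alone, 10 were called higher and 1 lower. Class II genes summed to 122 and 232 FPKM in the BM libraries and 3.28 to 116 before birth. The prenatal maximum, in pre-HSC replicate 3, was thus close to the lower BM library. H2-DMa, a peptide-exchange chaperone, was at 39.4 and 62.1 FPKM in BM HSCs, 9.9 and 4.66 in FL HSCs and 0.414 to 2.26 in the 7 earlier libraries, with a log2 fold change of 4.11 ± 0.29 (SE, adjusted p by limma of 1.98e-06). H2-Ab1, a classical class II chain, was at 10.2 and 26.8 in BM HSCs and 7.45 and 1.41 in FL HSCs, and its call was lost without BM HSC replicate 2 (adjusted p by limma of 0.0261, short of the F test), without pre-HSC replicate 1 and when replicate numbers were blocked. Cd74, the invariant chain, was at 15.4 and 41.2 and overlapped with FL HSC replicate 1 at 15.5 FPKM. The summed level of T and NK cell genes was also higher, at 93.6 and 108 FPKM in the BM libraries and 32.6 to 55.8 before birth. Of these 29 genes, 14 were at 0 in both BM libraries and 21 under 1. The sums of macrophage and dendritic genes were 323 and 389 in BM HSCs and 197 to 2351 before birth, and those of B lymphoid genes 94.5 and 102 and 84.1 to 143. Of the 8 T and NK genes that passed the filter, 5 were called higher and 4 lay above every prenatal library, with Nkg7, Lat and Cd4 among the 5. Cd247, also counted as called and separated, was at 2.6 and 3.54 FPKM against 0 to 0.826 before birth. It passed the filter only through the BM libraries and had to lie above every prenatal library, and counts without it were not made. In the other direction, 1 of the 8 was called lower and 2 lay below every prenatal library. Lck, a T cell kinase, was called lower, at 9.66 and 7.21 FPKM against 10.3 to 38.9 before birth. Cd3e and Cd8a were at or near 0, as given above. The part of other cells in the class II values was not tested.

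Interferon-stimulated genes were mostly higher. Of 56 tested, 41 were called higher, 38 lay above every prenatal library and the median log2 fold change was 2.10. Tgtp2, an interferon-induced GTPase with a near-identical neighbor, was at 69.8 and 79.9 FPKM in BM HSCs, 2.72 and 8.42 in FL HSCs and 0 to 0.0474 in the 7 earlier libraries. FL HSCs stood above the earlier libraries and BM HSCs above FL HSCs, and the log2 fold change was 5.59 ± 0.28 (SE, adjusted p by limma of 2.26e-07). Gm12216, annotated as protein-coding, was at 55.4 and 43.2 FPKM in BM HSCs and 0 to 6.72 before birth. Ifi203, a DNA-sensing family member, was at 54.7 and 53.6 against 0 to 21.4, Lgals3bp at 94.4 and 119 against 0.63 to 34.4, Ifi47 at 45.2 and 54 against 0.363 to 24.7 and Sp100, a nuclear body protein, at 55 and 50.9 against 0.177 to 12.9. Ifitm3, a membrane protein that blocks virus entry, was at 446 and 548 against 50.3 to 231. Oas1a, a sensor of double-stranded RNA, cleared the prenatal range only narrowly, at 14.5 and 13.4 against a maximum of 13.2 in pre-HSC replicate 3.

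Of 17 receptors and transcription factors of the interferon pathway, 8 were called higher and 1 lower, with a median log2 fold change of 1.23. Against FL HSCs alone, 0 were called higher and 0 lower, with a median of 0.39. Irf2 was at 63.2 and 70.9 FPKM against 7.71 to 47.3 before birth, Irf1 at 35.4 and 52.3 against 4.8 to 30.5, Jak2 at 24.8 and 19.4 against 4.18 to 16.3 and Irf9 at 30.4 and 27.6 against 4.42 to 20.3. The log2 fold changes of Irf2, Irf1 and Jak2 were 1.96, 1.85 and 1.53. The differences of all 4 from FL HSCs alone, 0.57 to 0.99, were not called. The receptor genes Ifnar1 and Ifngr1 were at 21.1 and 20.9 and 45.9 and 50.2 FPKM, inside their prenatal ranges of 17.1 to 51.9 and 21.9 to 75.2, and were not called.

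Promoters of these genes were searched for GAAANNGAAA, the core of the element bound by interferon-regulated factors, on both strands. The windows ran from 250 bases before to 50 after each start of RefSeq transcripts on GRCm38.p6, and a gene counted once if any of its starts had a match. Of 27025 genes in the promoter table, 3.99% held the motif. Among tested genes with a promoter it was 3.76% of 9571, for called members on the higher side 7.77% of 1119 and for those on the lower side 2.58% of 581. It was held by 24 of 37 interferon-stimulated genes (64.9%) and by 5 of 18 class I genes. A match describes letters and not a bound site. The 250 bases before the start are shown for 3 genes with the motif in capitals and for H2-K1, whose window holds none.

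B2m, chr2:122147437-122147686, plus strand: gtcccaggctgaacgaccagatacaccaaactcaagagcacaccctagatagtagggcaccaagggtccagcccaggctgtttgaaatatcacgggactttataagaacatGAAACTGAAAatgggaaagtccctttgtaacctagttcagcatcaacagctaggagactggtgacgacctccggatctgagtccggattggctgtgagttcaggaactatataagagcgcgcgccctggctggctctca
Tgtp2, chr11:49064213-49064462, minus strand: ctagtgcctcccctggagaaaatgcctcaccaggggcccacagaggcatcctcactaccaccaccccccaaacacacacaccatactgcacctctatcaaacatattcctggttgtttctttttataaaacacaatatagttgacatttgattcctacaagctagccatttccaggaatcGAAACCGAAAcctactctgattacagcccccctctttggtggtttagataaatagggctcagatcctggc
Oas1a, chr5:120907526-120907775, minus strand: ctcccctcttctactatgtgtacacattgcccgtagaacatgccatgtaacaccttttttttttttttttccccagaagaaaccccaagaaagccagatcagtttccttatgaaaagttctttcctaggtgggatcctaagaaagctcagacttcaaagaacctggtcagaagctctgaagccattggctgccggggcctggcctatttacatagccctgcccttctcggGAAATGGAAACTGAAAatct
H2-K1, chr17:34000348-34000597, minus strand: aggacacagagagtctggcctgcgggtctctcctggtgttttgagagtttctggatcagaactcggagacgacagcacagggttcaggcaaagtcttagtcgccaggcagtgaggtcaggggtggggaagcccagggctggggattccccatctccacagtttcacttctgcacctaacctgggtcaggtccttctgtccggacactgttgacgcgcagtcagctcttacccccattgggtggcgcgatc

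The motif began 139 bases before the start in B2m and 70 before it in Tgtp2. In Oas1a a pair of overlapping matches began 20 and 14 bases before the start. Of these 3 genes, B2m and Tgtp2 were called against FL HSCs alone and Oas1a was not.

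Genes of HSCs and of the megakaryocyte lineage, which produces platelets and shares many genes with HSCs, were higher on the whole but with exceptions. Of 52 HSC-enriched genes, 27 were called higher and 8 lower, with a median log2 fold change of 1.09, and 21 lay above and 3 below every prenatal library. Angpt1, the Tie2 ligand, was at 153 and 145 FPKM in BM HSCs, 22.3 and 38.4 in fetal liver, 7.99, 8.47 and 6.14 in pre-HSCs, 1.17 and 1.92 in HE and 0.658 and 0.999 in Endo. It stepped up in pre-HSCs, in FL HSCs and again in BM HSCs. The log2 fold change was 4.68 ± 0.21 (SE, adjusted p by limma of 1.24e-07). Gpr56, an adhesion receptor, was at 512 and 652 against 4.81 to 336. The log2 fold changes of Slamf1 and Hlf, whose values stand above, were 3.77 and 4.13. For Hlf the difference from FL HSCs alone, 0.49 ± 0.26 (SE, adjusted p by limma of 0.212), was not called. Abcb1b, a drug efflux pump, was at 7.52 and 8.52 FPKM in BM HSCs and at 0.324 to 1.19 before birth, FL HSCs included, while the related pumps Abcb1a and Abcg2 were not called against the prenatal mean, Abcb1a at 1.57 and 2 and Abcg2 at 40.8 and 70.5. On the other side, Cdkn1c (p57), a cell cycle inhibitor and imprinted gene, was at 20.1 and 21.1 FPKM in BM HSCs, 37.2 and 35.1 in FL HSCs and 191 to 265 in the 7 earlier libraries, a log2 fold change of -2.78 ± 0.11 (SE, adjusted p by limma of 4.75e-08).

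Of 33 megakaryocyte and platelet genes, 22 were called higher and 4 lower, with a median log2 fold change of 1.91. Itga2b (CD41), whose protein the HE and Endo sorts excluded, was at 163 and 147 FPKM in BM HSCs, 30.1 and 16.5 in FL HSCs and 3.88 to 10.6 in the 7 earlier libraries, and its log2 fold change was 3.99 ± 0.21 (SE, adjusted p by limma of 3.31e-07). Pf4, a platelet chemokine, was at 129, 68.6 and 245 FPKM in pre-HSCs, 114 and 35.5 in fetal liver and 579 and 558 in the marrow. The FL and pre-HSC libraries scattered several-fold, and both BM libraries stood above them. Slc14a1, a urea transporter, was at 78.9 and 86.1 FPKM in BM HSCs, 30.2 and 28.3 in FL HSCs and 0.188 to 2.73 in the 7 earlier libraries. Vwf, shared with endothelium, was at 55.9 and 44.3 in BM HSCs and 12.1 to 197 before birth and was not called. Mmrn2, another endothelial gene of this list, was at 0.00652 and 0 in BM HSCs and 0.369 and 0.378 in FL HSCs, where it was already near 0, and at 87.9, 96.2 and 82.9 in pre-HSCs.

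Among 50 hematopoietic transcription factors, 29 were called higher and 5 lower against the prenatal mean. Against FL HSCs alone, 9 were called higher and 9 lower, with a median log2 fold change of 0.26. Runx2, which also drives bone formation, was at 54.9 and 42.7 FPKM in BM HSCs, 12.7 and 12.5 in FL HSCs and 0.018 to 2.13 in the 7 earlier libraries, with a log2 fold change of 4.21 ± 0.30 (SE, adjusted p by limma of 2.39e-06). Runx3 was at 37.5 and 49.6 against 27.5 and 17.6 in FL HSCs and at most 0.914 in earlier libraries, Nfe2 at 204 and 249 against 146 and 130.4 in FL HSCs, and Myb at 162 and 139 against 113 and 134. Runx3, Nfe2 and Myb were not called against FL HSCs alone. Gata2, which maintains HSCs, was at 168 and 181 FPKM in BM HSCs, 76.4 and 66.5 in FL HSCs and 14.1 to 29.9 in the 7 earlier libraries and was called against each population. Gata1, an erythroid and megakaryocyte factor, was called higher at 20.7 and 30.4 but lay below FL HSCs at 64.7 and 42.6. The inhibitors of DNA binding Id3 and Id1 were lower, Id3 at 0.421 and 0.591 FPKM in BM HSCs, 16.4 and 12.1 in fetal liver, 145, 134 and 164 in pre-HSCs, 315 and 267 in HE and 335 and 275 in Endo and Id1 at 5.41 and 0.959 in BM HSCs against 29.7 to 117. The log2 fold change of Id3 was -6.30 ± 0.14 (SE, adjusted p by limma of 1.72e-09). Sox6 and Klf9, chosen after their values were seen, were at 0.713 to 1.88 and 0.383 to 1.64 FPKM before birth and at 15.3 and 15.5 and 11.3 and 12 in BM HSCs.

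Of 43 cytokine and chemokine receptors, 22 were called higher and 6 lower against the prenatal mean. The contrast with FL HSCs alone called 6 higher and 4 lower, with a median log2 fold change of 0.06. Il15ra was at 20.3 and 20.6 FPKM against 0.276 to 9, Tnfrsf18 at 19.996 and 23.3 against 0 to 13, and Cxcr4, the receptor that retains HSCs in the marrow, at 36.9 and 57.9 against 5.57 to 27.3. Flt3, whose protein CD135 the BM sort excluded by the methods, was at 13.3 and 10.7 in BM HSCs and 16.8 and 23.3 in FL HSCs. Nkg7, a gene of cytotoxic cells, was at 20.03 and 41.1 in BM HSCs and 9.85 and 3.94 in FL HSCs, Lat, a T cell and megakaryocyte adaptor, at 48.8 and 46.5 against 6.05 to 16.9, and Cd72, a B cell coreceptor, at 29.3 and 27.8 against 2.42 to 11. Of 6 tested B lymphoid genes, 2 were called higher and 2 lower, and 1 lay above and 2 below every prenatal library. Their median log2 fold change was 0.02. A gene ID of Ebf1, a B cell factor, was called lower, at 0 in both BM libraries and 0.0574 to 3.99 before birth. The call of Cd72 failed the F test without BM HSC replicate 1 (contrast adjusted p by limma of 0.00463) and without replicate 2 (0.00382).

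Several of the largest changes fell outside these groups. Myl10, a myosin light chain, was listed at 0 in all 7 earlier libraries, at 0.884 and 1.11 FPKM in FL HSCs and at 42.2 and 80.2 in BM HSCs. Its log2 fold change was 5.64 ± 0.22 (SE, adjusted p by limma of 4.76e-08). Aldh1a1, an aldehyde dehydrogenase of retinoic acid synthesis, was at 29.8 and 52 FPKM in BM HSCs and at 0 to 0.489 in the prenatal libraries, so that it passed the filter only through the BM libraries. Sdsl, a serine dehydratase, was at 87.7 and 96.3 against 0.232 to 2.87, and Phactr1, an actin-binding phosphatase regulator, at 30.6 and 123 against 0.549 to 2.58, with a wide spread between the BM libraries. For these 4 genes FL HSCs had moved from -0.14 to 0.17 of the way from the earlier mean to BM HSCs on the log2 scale. The mucin Muc13, at 104 and 129 FPKM in BM HSCs, 19 and 13.8 in FL HSCs and 0.0339 to 0.867 in the 7 earlier libraries, and Rgs18, a G protein regulator of platelets, at 89 and 93.4 FPKM in BM HSCs, 18.5 and 19.8 in FL HSCs and 0.0134 to 2.69 in the 7 earlier libraries, had moved 0.58 and 0.63 of the way in FL HSCs. Rgs1, a G protein regulator of leukocytes, was at 11.7, 4.33 and 20.7 in pre-HSCs, 0.343 and 0.653 in fetal liver and 92 and 52.2 in the marrow. Serpina3g, a protease inhibitor, was at 255 and 205 against 67.9 and 60.6 in FL HSCs. The adjusted p values of limma for these genes other than Aldh1a1 ran from 7.04e-09 to 8.12e-06.

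Among smaller groups, 8 of 42 glutathione and redox genes were called higher and 5 lower (beside 15.3% and 12.0% of all genes). Gstt1 was at 12 and 17.1 FPKM against 0.294 to 1.44 and Txnip, an inhibitor of thioredoxin, at 350.000 and 384 against 30.7 to 168, whereas Gpx3 was at 1.19 and 1.37 against 5.89 to 193. Bcl2, which blocks apoptosis, was at 2.21 to 4.27 FPKM before birth and at 15.9 and 15.6 in BM HSCs, a log2 fold change of 1.96 ± 0.23 (SE, adjusted p by limma of 6.71e-05). Of other genes of its family, Bok, which promotes apoptosis, was lower with a log2 fold change of -3.16, and Mcl1, which blocks it, was not called at 79.5 and 58.5. In the Polycomb and DNA methylation group, 11 of 40 were called higher and 2 lower, but 2 and 2 against FL HSCs alone. The chromobox genes Cbx7 and Cbx6 were higher, Cbx7 at 28.4 and 15.3 against 0.568 to 9.06, and Cbx2 was lower, at 7.4 and 6.82 against 13.4 to 31.5. Ezh2 and Dnmt3b were not called, and FL HSCs exceeded BM HSCs in Dnmt3b with 94.2 and 99.3 against 40.7 and 34.1. The nuclear noncoding RNA Malat1, chosen after its values were seen, was at 464 and 171 against 19.7 to 108, with a large gap between the BM libraries. It failed the F test in 10 alternatives, 8 of them with a single library left out, and without BM HSC replicate 1 its log2 fold change went from 2.44 to 1.72 (adjusted p by limma of 0.0343).

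Several genes of the Lin28 axis were even before birth and low in BM HSCs. Of 22 genes of fetal RNA-binding and chromatin proteins, 12 were called lower and 1 higher, 9 lay below every prenatal library and the median log2 fold change was -1.36. Igf2bp1 (chromosome 11, 95818477 to 95867254 in NCBIM37), an RNA-binding protein of growth transcripts, was at 0.0542 and 0.0692 FPKM in BM HSCs, 20.7 and 19.6 in fetal liver, 33.3, 31.6 and 28.6 in pre-HSCs, 36.2 and 43.3 in HE and 33.3 and 42.8 in Endo. The lowest prenatal library was at 19.6 FPKM and both BM libraries were near 0, so that the means differed 523-fold and the log2 fold change was -4.92 ± 0.13 (SE, adjusted p by limma of 6.06e-09). Hmga2 (chromosome 10, 119798331 to 119913525), a chromatin protein of growing fetal cells, was at 3.95 and 3.31 FPKM in BM HSCs, 81.5 and 111 in fetal liver, 117, 119.6 and 95.5 in pre-HSCs, 91.9 and 108 in HE and 83.2 and 105 in Endo. The values of FL HSCs and Endo overlapped, and the mean before birth was 27.6 times that of BM HSCs. The log2 fold change was -4.44 ± 0.15 (SE, adjusted p by limma of 2.41e-08).

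Igf2bp3 was at 0.405 and 0.471 FPKM in BM HSCs, 21.6 and 19.98 in FL HSCs and 24.4 to 31.3 in the 7 earlier libraries and Igf2bp2 at 7.65 and 5.08 FPKM in BM HSCs, 39.8 and 44.2 in FL HSCs and 31.7 to 50.6 in the 7 earlier libraries, so all of the family were present before birth and only Igf2bp2 kept more than 1 FPKM in the marrow. Lin28b (chromosome 10, 45096426 to 45206201), which blocks let-7 maturation, was at 0.629 and 0.16 FPKM in BM HSCs, 6.7 and 12.6 in fetal liver, 7.9, 9.09 and 8 in pre-HSCs, 6.08 and 8.55 in HE and 6.97 and 8.29 in Endo, with a log2 fold change of -2.72 ± 0.23 (SE, adjusted p by limma of 7.24e-06). Lin28a, its paralog, differed in timing, with 12 and 21.7 in Endo and 21.8 and 16.3 in HE but 1.29, 0.957 and 1.59 in pre-HSCs and 0.0539 and 0.943 in fetal liver, and it was listed at 0 in both BM libraries. Arid3a, a DNA-binding protein of fetal B lymphopoiesis, was at 6.34 and 5.16 against 19.4 to 30.1. Against FL HSCs alone the log2 fold changes were -4.32 ± 0.17 (SE, adjusted p by limma of 1.11e-06) for Igf2bp1 and -4.38 ± 0.19 (SE, adjusted p by limma of 1.75e-06) for Hmga2.

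The let-7 family recognizes its targets through a seed of 7 bases, here in capitals in let-7a and in its match in the first site of the longest annotated 3' UTR of each of 6 genes. All 9 mature members of the family found in RefSeq carried the seed GAGGUAG. The transcripts are those of GENCODE M1, and let-7 itself was not measured in these poly(A)-selected libraries.

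mmu-let-7a-5p: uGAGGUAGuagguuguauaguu
Lin28b: gggcgggaagtCTACCTCatgcaagcaca
Hmga2: acattcaatttCTACCTCagcatcagttg
Igf2bp1: tgcgaagtaaaCTACCTCaaggtgtgaag
Igf2bp2: acaaataaaagCTACCTCaggtgtttttt
Igf2bp3: tttttactcaaCTACCTCaggtattcagt
Arid3a: caagtttctttCTACCTCaggtcttttga

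Lin28b, Hmga2 and Igf2bp1 each held 4 copies of CTACCTC, Arid3a held 2, and Igf2bp2 and Igf2bp3 held 1. Of other lower genes searched, Lin28a held 2 copies, while Plagl1, Igf2 and Plk1, whose 3' UTR spans 285 bases, held 0. Of 13054 tested genes with an annotated 3' UTR, 10.5% held at least 1 copy, with a median length of 1134 bases. The share was 13.5% of 809 called members on the lower side (median 1021 bases) and 12.0% of 1497 on the higher side (median 1354 bases). Among lower members whose 4 prenatal means lay within 2-fold, it was 34 of 172, or 19.8%, at a median of 940.5 bases. For higher members with prenatal means within 2-fold it was 57 of 478, or 11.9%, at a median of 1336 bases. Known let-7 targets helped to choose the list above, and these shares are a description of sequence.

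**Figure D3:**
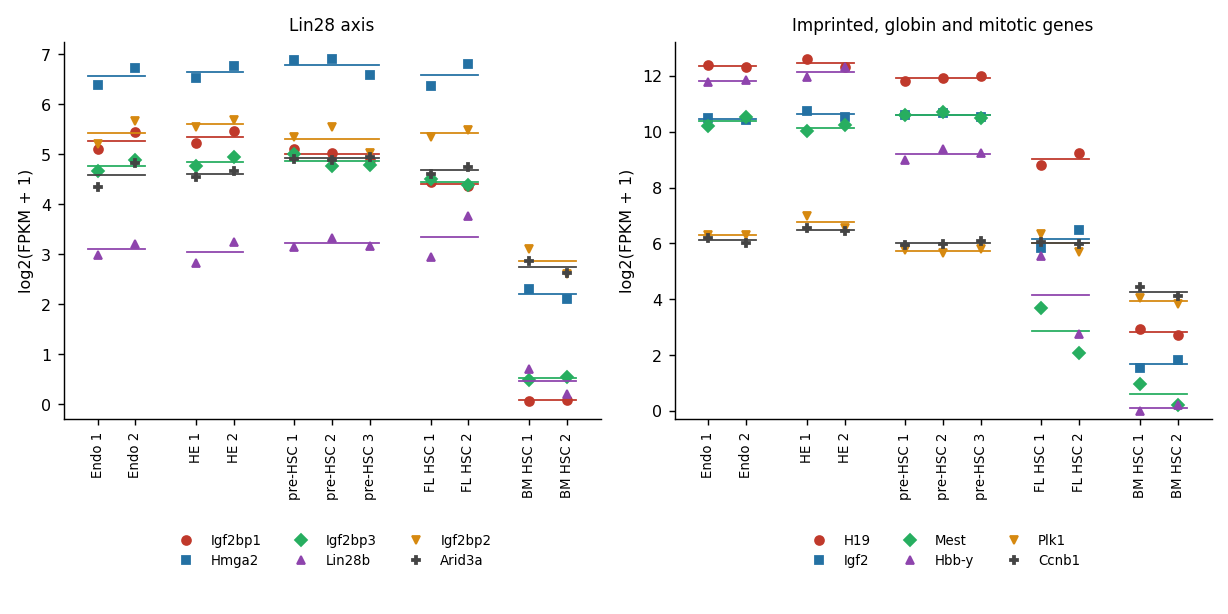
Log2(FPKM + 1) in each of the 11 libraries (points) with population means (lines) for 6 Lin28 axis genes (left) and for imprinted, globin and mitotic genes (right). The Lin28 axis genes and the mitotic genes Plk1 and Ccnb1 are lower in both BM HSC libraries than in each of the 9 prenatal libraries, while Igf2 and Mest drop first in FL HSCs and Hbb-y in pre-HSCs.

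Imprinted genes, which are expressed from 1 parental allele and many of which control fetal growth, were lower more often than higher. Of 47 tested, 25 were called lower and 4 higher, and the median log2 fold change was -1.22. Against FL HSCs alone, 8 were called lower and 3 higher, with a median of -0.07. H19 (chromosome 7, 149761434 to 149764048), a noncoding RNA of the Igf2 domain, was at 6.59 and 5.64 FPKM in BM HSCs, 448 and 602 in fetal liver, 3606, 3861 and 4110.1 in pre-HSCs, 6197 and 5046 in HE and 5365 and 5163 in Endo. FL HSCs lay well below the earlier libraries, and BM HSCs well below FL HSCs. Igf2 (chromosome 7, 149836673 to 149852721), the fetal growth factor next to H19, was at 1.89 and 2.58 FPKM in BM HSCs, 56.5 and 89 in FL HSCs and 1374 to 1694 in the 7 earlier libraries. The log2 fold changes were -8.61 ± 0.15 (SE, adjusted p by limma of 7.47e-10) for H19 and -7.78 ± 0.16 (SE, adjusted p by limma of 1.4e-09) for Igf2. Mest was at 0.958 and 0.172 FPKM in BM HSCs, 11.9 and 3.18 in FL HSCs and 1054 to 1687 in the 7 earlier libraries with the larger drop between pre-HSCs and FL HSCs. Dlk1, a Notch-like protein, was at 2.19 and 2.46 FPKM in BM HSCs, 101 and 84.4 in FL HSCs and 103 to 597 in the 7 earlier libraries. Plagl1, a regulator of other imprinted genes, was at 0.326 and 0.229 FPKM in BM HSCs, 2.95 and 5.28 in FL HSCs and 61 to 368 in the 7 earlier libraries, and Grb10, an inhibitor of growth factor signaling, at 61.3 and 58.2 against 122 to 245. Meg3, the noncoding RNA of the Dlk1 domain, overlapped, at 26.8 and 7.79 in BM HSCs and 2.05 and 11.9 in FL HSCs.

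Globin RNA was near 0 in BM HSCs. Hbb-y, an embryonic beta-like globin, was at 0 and 0.172 FPKM in BM HSCs, 46 and 5.71 in fetal liver, 501, 663 and 601 in pre-HSCs, 3951 and 5109 in HE and 3488 and 3717 in Endo. The embryonic alpha-like Hba-x was at 0.302 and 0 FPKM in BM HSCs, 6.63 and 1.07 in FL HSCs and 138 to 2492 in the 7 earlier libraries, and the adult alpha globin Hba-a1 at 0 and 0.195 FPKM in BM HSCs, 68.7 and 15 in fetal liver, 43.3, 71.2 and 59.7 in pre-HSCs, 453 and 559 in HE and 393 and 441 in Endo. The log2 fold changes were -9.21 ± 0.52 (SE, adjusted p by limma of 4.82e-07) for Hbb-y, -7.66 for Hba-x and -7.02 for Hba-a1. Hba-a1 and Hba-a2 are near-identical copies whose reads could be split. Hbb-b1, an adult beta globin, was highest in FL HSCs, at 53.1 and 18.3 FPKM, and was at 0.0832 and 2.95 in BM HSCs. The summed level of erythroid genes, globins included, was 586 and 831 FPKM in BM HSCs and 873 to 12230.000 before birth. Of 28 erythroid genes, 12 were called lower and 4 higher. Against FL HSCs alone, 20 were called lower and 0 higher, with a median log2 fold change of -1.90. Against pre-HSCs alone, 9 were called lower and 8 higher, with a median of 0.27. Whether globin RNA in the prenatal libraries came from other cells was not tested.

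Of 61 mitosis genes, 20 were called lower, 36 lay below every prenatal library, and the median log2 fold change was -0.78. Plk1, a mitotic kinase, was at 15.7 and 13.2 FPKM in BM HSCs, 80.8 and 50.2 in FL HSCs and 49 to 124 in the 7 earlier libraries. Ccnb1, the mitotic cyclin, was at 20.6 and 16.2 FPKM in BM HSCs, 65.5 and 61.8 in FL HSCs and 61.3 to 91.8 in the 7 earlier libraries, with a log2 fold change of -1.89 ± 0.11 (SE, adjusted p by limma of 5.42e-07). Other members below every prenatal library were Ube2c, at 57.4 and 40.01 against 144 to 344, Birc5, at 44.3 and 25.9 against 98.1 to 206, and Aurka, at 18.9 and 13.2 against 39.2 to 89.9. Within this list Mki67, the common proliferation marker, was not called, at 42.4 and 24.9 against 15.7 to 40.3. Of 44 genes of DNA replication, 2 were called lower and 2 higher, and 10 lay below every prenatal library. Against FL HSCs alone, 7 were called lower and 0 higher, with a median log2 fold change of -0.62. Against pre-HSCs alone, 1 was called lower and 5 higher, with a median of 0.15. Rrm2, the inducible subunit of ribonucleotide reductase, was at 28.8 and 26.9 against 72.8 to 95.3, but Mcm2, a subunit of the replicative helicase, was at 90.6 and 106 and Pcna, the clamp, at 383 and 384, inside their prenatal ranges of 73 to 198 and 257 to 480.1. Of 37 genes for CDK inhibitors and quiescence, 11 were called higher and 6 lower, beside 15.3% and 12.0% of all genes. Rbl2, a pocket protein, was at 27.1 and 29.9 against 1.18 to 11.8, Cdkn2c at 15.2 and 11.6 against 0.919 to 9.19 and Cdk6, a G1 kinase, at 32.3 and 33.4 against 1.12 to 18.3. Cdkn1a, another inhibitor, was lower, at 3.61 and 1.97, and overlapped with FL HSCs at 6.07 and 2.49.

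Of 61 respiratory chain genes, 5 were called lower, beside 12.0% of all genes. Of the same 61, 29 lay below every prenatal library, beside 11.6% of all genes. A negative log2 fold change was found for 59, with a median of -0.63. Ndufab1, an acyl carrier subunit, was at 62.3 and 41.3 against 117 to 290.3, and the electron carrier Cycs at 23.3 and 22.9 against 27.5 to 104. Cox7a2, Ndufs5 and Atp5g3, also called, fell short of 2-fold with quantile normalization, at log2 fold changes of -0.94, -0.90 and -0.73. Of 32 glycolysis genes, 9 were called lower and 5 higher, beside 12.0% and 15.3% of all genes. Slc16a3, the lactate exporter, was at 4.15 and 7.07 FPKM in BM HSCs, 58.5 and 53.2 in FL HSCs and 33.2 to 189 in the 7 earlier libraries, with a log2 fold change of -3.68 ± 0.22 (SE, adjusted p by limma of 6.9e-07), and the glucose transporter Slc2a1 at 19.4 and 18 FPKM in BM HSCs, 44.9 and 41.5 in FL HSCs and 112 to 614 in the 7 earlier libraries. Aldoc, a less common aldolase, was higher at 8.21 and 11.3 against 0.536 to 4.54, and Ldha was not called. Of 29 genes of cholesterol and fatty acid synthesis, 9 were called lower, with Scd1, a fatty acid desaturase, at 0.314 and 0.451 against 1.26 to 8.15. The median log2 fold change was 0.07 for 51 cytosolic ribosomal proteins and 0.10 for 56 genes of ribosome biogenesis, against 0.10 for all genes. For ribosome biogenesis this median covers opposite contrasts. Against FL HSCs alone it was -0.57, with 2 genes called lower and 0 higher. Against pre-HSCs alone it was 0.50, with 6 called higher and 0 lower.

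Most endothelial and matrix genes were lower in BM HSCs than in the mean of the prenatal populations, which include 2 endothelial ones. Of 37 endothelial genes, 33 were called lower and 2 higher, with a median log2 fold change of -3.76, but 6 were called lower against FL HSCs alone, where the median was -0.19. Cdh5 (VE-cadherin), whose protein CD144 was required in the pre-HSC sort, was at 0.0257 and 0.0124 FPKM in BM HSCs, 11.2 and 4.78 in FL HSCs and 292 to 489 in the 7 earlier libraries, with a log2 fold change of -7.11 ± 0.22 (SE, adjusted p by limma of 1.27e-08). Plvap, a component of endothelial pores, was at 0.533 and 0.791 FPKM in BM HSCs, 9.42 and 5.67 in FL HSCs and 440.4 to 662 in the 7 earlier libraries, Aplnr, the apelin receptor, at 0 and 0 FPKM in BM HSCs, 1.05 and 0.516 in FL HSCs and 196 to 335 in the 7 earlier libraries and the junction gene Cldn5 at 0.395 and 1.08 FPKM in BM HSCs, 3.68 and 1.43 in FL HSCs and 284 to 681 in the 7 earlier libraries. Pecam1 (CD31) and Tek, the angiopoietin receptor, were called lower but overlapped with FL HSCs, Pecam1 at 21.2 and 19.9 against 15.4 and 20.2 and Tek at 12.8 and 12.7 against 9.4 and 15.5. Of 39 matrix genes, 34 were called lower against the prenatal mean and 7 against FL HSCs alone. Col18a1, a basement membrane collagen, stepped down both in FL HSCs and in BM HSCs, at 2.42 and 2.18 FPKM in BM HSCs, 34.1 and 36.8 in FL HSCs and 325 to 456 in the 7 earlier libraries. Hspg2 (perlecan) was at 0.336 and 0.123 FPKM in BM HSCs, 3.66 and 1.83 in FL HSCs and 167 to 342 in the 7 earlier libraries. The growth factor Mdk, at 1.55 and 2.17 FPKM in BM HSCs, 9.69 and 11.2 in FL HSCs and 416 to 1709.6 in the 7 earlier libraries, the actin regulator Cnn3, at 1.14 and 1.31 FPKM in BM HSCs, 56.7 and 55.9 in FL HSCs and 299 to 325 in the 7 earlier libraries, and the calcium-binding S100a16, at 0.203 and 0.0536 FPKM in BM HSCs, 11.7 and 7.78 in FL HSCs and 178 to 319 in the 7 earlier libraries, had the same 2 steps. Fitted with all prenatal libraries as 1 group and no F test step, Aplnr, Cldn5, Pecam1 and Tek lost their calls.

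**Figure D4:**
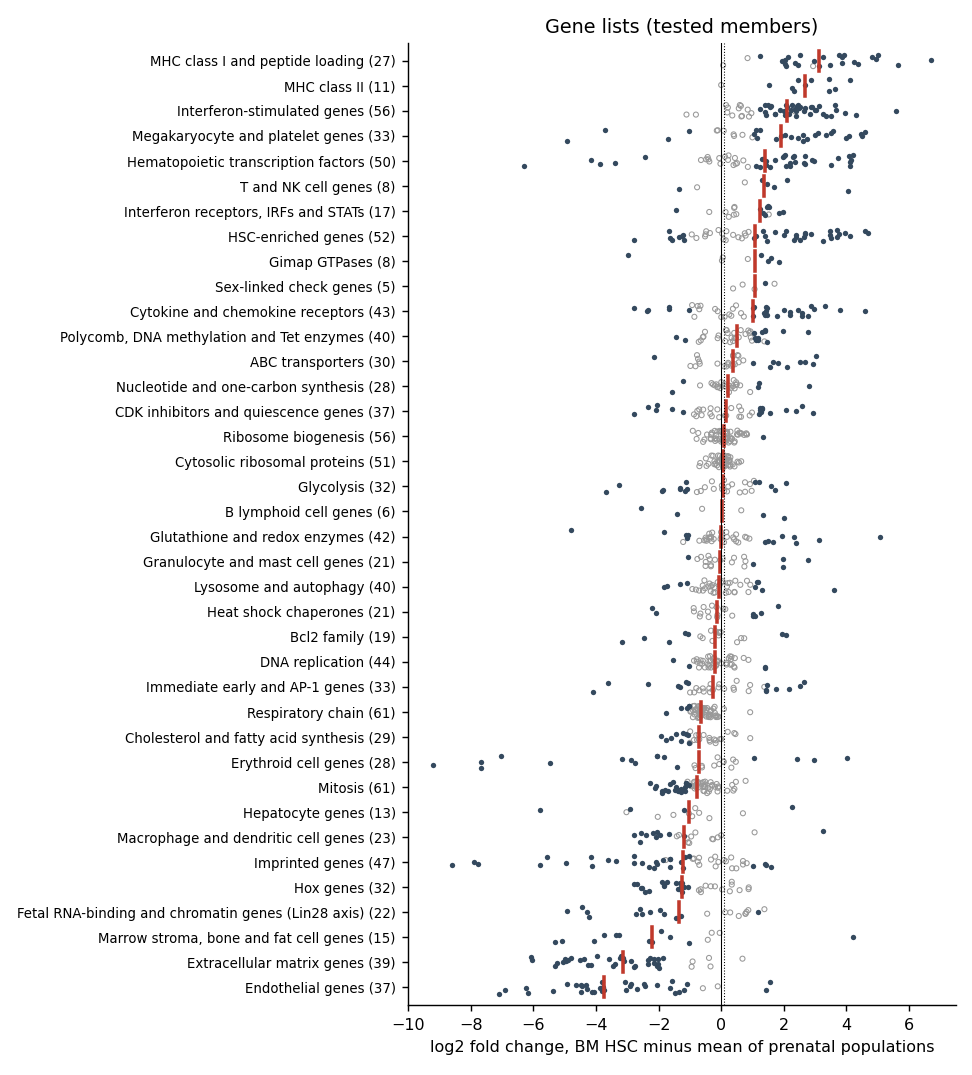
Log2 fold change of BM HSCs against the mean of the prenatal populations (horizontal) for the tested members of 38 gene lists, with filled points for called genes, open points for the rest, a red bar for each list's median, a solid line at 0 and a dotted line at the median of all genes, 0.10. Class I genes have the highest median, 3.11, and endothelial genes the lowest, -3.76.

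The position of FL HSCs was described for each called member as the share of the way, in log2(FPKM + 1), from the mean of Endo, HE and pre-HSCs to BM HSCs. Of 1662 higher members, 339 (20.4%) had a share under 0.25, 1030 (62.0%) lay between 0.25 and 0.75 and 293 (17.6%) above it. Of 842 lower members the numbers were 146 (17.3%), 414 (49.2%) and 282 (33.5%). FL HSCs were the prenatal population nearest to BM HSCs for 80.7% of higher and 82.2% of lower members. The 4 prenatal means lay within 2-fold for 565 higher (34.0%) and 181 lower members (21.5%). The pseudocount of 1 narrows this range for genes near 0. Bcl2 and Sox6 are among them on the higher side, and Hmga2, Igf2bp1, Igf2bp2, Igf2bp3, Lin28b, Arid3a and Ccnb1 on the lower.

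**Figure D5:**
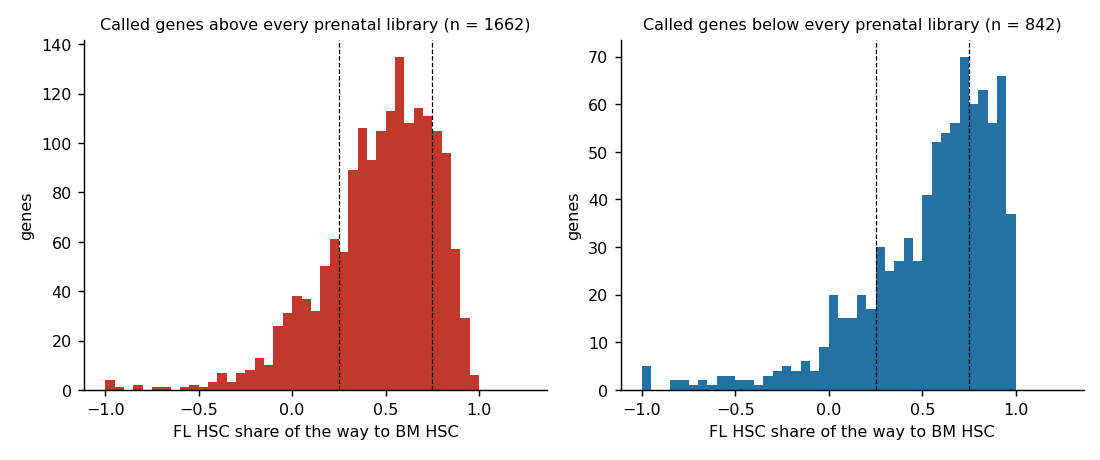
Number of called members (vertical, different scales) by the share of the way from the earlier prenatal mean to BM HSCs at which FL HSCs stood (horizontal), for 1662 higher (left) and 842 lower members (right), with shares under -1 drawn at -1 and dashed lines at 0.25 and 0.75. FL HSCs lie between the lines for 1030 higher and 414 lower members.

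Of 32 Hox genes, 19 were called lower, yet only Hoxd4 lay below every prenatal library, at 0.0313 and 0 FPKM against 0.209 to 11.7. The contrast with FL HSCs alone called 0 of them higher and 0 lower. Hoxa9 and Hoxb4 were not called. Of 33 immediate early genes, which respond to handling and to signals, 7 were called higher and 7 lower, with summed levels of 1273 and 3278 FPKM in the BM libraries, more than a factor of 2 apart, and 719.9 to 2668 before birth. Against FL HSCs alone, 9 were called higher and 0 lower, with a median log2 fold change of 0.85. Against pre-HSCs alone, 2 were called higher and 17 lower, with a median of -1.29. Of 23 macrophage and dendritic genes, 10 were called lower, among them Csf1r at 0.136 and 0.0674 against 33.2 and 4.79 in FL HSCs and 85.8, 26.3 and 164 in pre-HSCs. Lgmn, a lysosomal protease chosen after its values were seen, followed the same libraries, with 145, 58.1 and 263 in pre-HSCs, 67.4 and 10.5 in fetal liver and 1.02 and 0.589 in the marrow. Of 21 granulocyte and mast cell genes, 0 were beyond every prenatal library, and Mpo was at 10.6 and 8.89 in BM HSCs and 189.9 and 160.02 in FL HSCs. Hepatocyte genes summed to 70.2 and 84.2 in BM HSCs and 135 to 1023 before birth, and marrow stroma and bone genes to 53 and 65.7 and 23.4 to 1000.2.

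With the 9 prenatal libraries as 1 group and no F test step, 65 of 190 called named genes lost the call. Beside those already given, they include Cbx6, Cd4, Cdkn1a, Csf1r, Cxcr4, Cycs, Flt3, Gata1, Gpr56, Hba-x, Hlf, Hoxd4, Irf1, Irf2, Irf9, Kit, Lgals3bp, Lin28a, Mecom, Meg3, Mmrn2, Myb, Nfe2, Oas1a and Pf4.

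Sex-linked genes were read in every pool. Xist, the noncoding RNA of the inactive X, was at 75.9 and 61.5 FPKM in BM HSCs, 20.1 and 37.8 in fetal liver, 33.5, 32.2 and 25.1 in pre-HSCs, 21.1 and 21.9 in HE and 22.2 and 22.8 in Endo, a log2 fold change of 1.41 ± 0.20 (SE, adjusted p by limma of 0.000255), a call that failed the F test without BM HSC replicate 1 (log2 fold change of 1.26). The Y-linked Eif2s3y was at 49 and 25.8 in BM HSCs and 3.38 to 30.3 before birth, lowest in FL HSC replicate 1, and Ddx3y at 9.51 and 6.41 and 2.02 to 8.73. All 11 libraries held RNA of both sexes. Called members were spread over the genome. Higher ones made up 8.38% of the tested genes on chromosome 8 and 14.4% on chromosome 17, which carries the MHC, with the other autosomes and the X between these values.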

How the data were processed

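RNA-seq of poly(A)-selected mRNA from sorted mouse cells was analysed in 11 libraries of 5 populations, grouped by the sample labels. The authors aligned paired-end reads to mm9 with TopHat and used Ensembl gene models. Per the submitters' processing notes, Cufflinks, Subread, featureCounts and edgeR were in use as well. The authors deposited FPKM per gene for 37820 gene IDs, with a tool not given in the sources used here. Reads could not be recovered from the FPKM values, so depth is unknown and no count test was used. An exact 0 can be a failed estimate. Positions were taken from GENCODE M1 (NCBIM37), which held 37038 of the IDs.

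Genes reaching an FPKM of 1 in 2 or more libraries were tested with limma 3.58.1 in R 4.3.3 on log2(FPKM + 1), with an intensity trend and all 11 libraries sharing 1 estimate of the spread, and p values were adjusted by Benjamini-Hochberg over the genes tested. The fit was tested on simulated data. Tables were made in Python 3.11.15 with pandas 2.3.3 and numpy 2.4.6, and figures with matplotlib 3.10.9. Named genes are the 15 protein-coding members with the largest changes in each direction at a mean of at least 10 FPKM (1029 higher and 532 lower genes were eligible), HSC and lineage markers, up to 5 separated and called genes of each list, up to 2 others of each list and a few chosen after their values were seen, as stated there. The members and the lists were chosen with earlier results of these data known. Promoter and microRNA sequences are from RefSeq, the promoters on GRCm38.p6, and 3' UTRs are the longest per gene in GENCODE M1. Alternatives were 2 other pseudocounts, other filters and normalizations, a stricter threshold, no F test, a replicate block, other groupings of the prenatal libraries, wider gaps and leaving out each library.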

Additional observations from a re-analysis of the deposited data

How the results depend on the processing

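Of 190 called named genes, 0 changed sign under an alternative that was run, 115 kept their call throughout and 75 lost it in at least 1 alternative, 65 of them with all prenatal libraries as 1 group and no F test step and 20 in another alternative, some genes in both. With the prenatal libraries as 1 group and no F test step, 1308 genes were called higher and 575 lower, in place of 2243 and 1765, and the share called higher was 69.5% in place of 56.0%. With only the libraries of both populations in each contrast and no F test step, 0 genes were called higher and 0 lower against each of the 4 populations, because no gene was called between BM and FL HSCs (3943 at an unadjusted p under 0.05), while 5813, 5807 and 4430 were called against Endo, HE and pre-HSCs. A pseudocount of 0.1 raised the genes lower than each of the 4 populations from 243 to 474. Requiring a gap of at least 1.5 times in FPKM + 1 left 764 higher and 332 lower members, and a gap of 2 times left 328 and 133. With each library left out in turn, genes called against each of the 4 populations ranged from 384 to 692 higher and from 188 to 310 lower, those called against the prenatal mean from 1857 to 2354 and from 1678 to 1793, and those beyond every prenatal library from 2710 to 3594 and from 1704 to 2501. The 384 came without BM HSC replicate 1 and the 188 without FL HSC replicate 1. The rule is easier to meet with fewer libraries, so its counts with a library left out are no measure of stability. The cause of the changes in calls was not tested.

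No source used here says what the replicate numbers mark. Deviations of same-numbered BM and prenatal libraries correlated at -0.155 to 0.101, so BM and prenatal libraries were treated as sharing only a number. With the replicate number as a block, 2195 genes were called higher and 1746 lower, and 596 and 230 against each of the 4 populations. Depth is unknown, and 2 BM libraries limit every comparison.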
